A study of Rattus norvegicus with 24 samples.

Results

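The genes described here copy DNA or supply the nucleotides for it, and they were followed in rat liver over 14 days of dosing with metformin or vehicle. A list of 36 symbols was matched to probe sets annotated with a single gene symbol, and where a gene had several the one with the highest mean over all 24 arrays was to be used. The list gave 35 measured genes of 22093 genes on the array, each through 1 probe set. Dut, the dUTPase, was not measured by this rule, because its probe set was also annotated to the pseudogene Dut-ps. All 35 passed the filter on dim probe sets (log2 intensity above 4.28 in at least 4 arrays), as did 19686 genes in all. Orc1 passed it in only 4 arrays and Gins1 in 20, so values of these lie close to the dim end of the scale. Cdc6, Cdt1, Gins2, E2f1, Fen1 and Cdc45 were also dim, with means from 4.76 to 5.17. An absent fall is weak evidence in such genes, although Gins1, E2f1 and Cdc45 are reported below to fall in metformin rats.

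Liver RNA came from 24 male Wistar rats of the RccHan strain, 7 to 8 weeks old when they were assigned, with 1 rat per array and 4 arrays in each of 6 groups. Metformin, a biguanide that lowers blood glucose, was given by gavage at 800 mg/kg on 1, 3 or 14 consecutive days. Rats of the control arm received the vehicle alone (ethanol, Kolliphor HS 15 and tap water, 10/40/50) for the same number of days, so that each day had its own controls. The study's design text states 5 animals per group. Rats of day 14 were also older and had been gavaged more often than those of day 1, and no source used here gives a batch for the arrays, so day, age, number of gavages and any batch by day cannot be told apart. Array medians ran from 4.80 to 5.11 (log2), and the lowest correlation across genes between 2 arrays of a group was 0.989. Summed hepatocyte markers lay between 22.02 and 22.20 on the log2 scale in all 24 arrays. On day 14 they lay between 22.02 and 22.16 in metformin livers and between 22.17 and 22.19 in controls, without overlap. The sum is of linear intensities, so the brightest markers weigh most in it.

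Before a cell copies its genome, the origin recognition complex with Cdc6 and Cdt1 loads the MCM helicase onto origins, and Cdc45 and the GINS complex then turn it into the moving helicase. DNA polymerases follow, held on DNA by the sliding clamp PCNA, and ribonucleotide reductase, thymidylate synthase and thymidine kinase make the deoxynucleotides. Transcription of many of these genes is controlled by E2F factors and rises as cells enter S phase. Most hepatocytes of an adult liver are out of the cell cycle, while livers of growing rats still hold dividing cells. In whole liver, fewer cells of a type and less RNA per cell cannot be told apart.

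The promoters of 4 genes are shown because these genes fell from day 1 and from day 3 to day 14 in both arms, and because they differ in E2F motifs. They were chosen after their values were seen, from 8 such genes. Those not shown are Rrm1, Rrm2l1 and Chaf1b, whose promoters held no E2F octamer, and Rrm2. The sequences are from RefSeq (build GRCr8) and run 5′ to 3′ on the gene's strand from 250 bases before an annotated start to 50 after it. For each gene 1 start was used, the first listed, which need not be the gene's outermost. For Tk1 it lies slightly inside the outer end of the gene, at 103544818. Capitals mark an E2F octamer on either strand. Mcm3, at chr9:30733697-30733996 on the minus strand, held 2 octamers that start at positions -6 and 13 from the annotated start. Mcm5, at chr19:13488563-13488862 on the plus strand, held 3, at -213, -209 and -8, of which the first and the second overlap. Mcm6, at chr13:42404303-42404602 on the minus strand, held 2 overlapping ones at -139 and -135. Tk1, at chr10:103544728-103545027 on the minus strand, held none.
Mcm3: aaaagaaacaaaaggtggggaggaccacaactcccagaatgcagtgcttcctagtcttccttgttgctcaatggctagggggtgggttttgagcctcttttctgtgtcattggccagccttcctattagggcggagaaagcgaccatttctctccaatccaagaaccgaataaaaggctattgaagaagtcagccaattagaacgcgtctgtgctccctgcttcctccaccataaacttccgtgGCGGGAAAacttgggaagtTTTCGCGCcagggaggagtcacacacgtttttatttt
Mcm5: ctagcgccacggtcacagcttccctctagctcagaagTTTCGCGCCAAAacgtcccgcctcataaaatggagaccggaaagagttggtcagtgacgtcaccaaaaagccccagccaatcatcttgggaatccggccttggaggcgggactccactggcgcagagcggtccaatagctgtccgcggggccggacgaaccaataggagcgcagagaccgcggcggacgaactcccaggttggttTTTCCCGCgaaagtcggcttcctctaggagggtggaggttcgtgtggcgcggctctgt
Mcm6: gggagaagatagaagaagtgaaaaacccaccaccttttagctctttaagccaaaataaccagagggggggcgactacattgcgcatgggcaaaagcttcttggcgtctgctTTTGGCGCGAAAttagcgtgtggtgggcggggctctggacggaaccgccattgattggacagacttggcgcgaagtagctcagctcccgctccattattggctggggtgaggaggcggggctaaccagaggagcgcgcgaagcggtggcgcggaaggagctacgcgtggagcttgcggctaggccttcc
Tk1: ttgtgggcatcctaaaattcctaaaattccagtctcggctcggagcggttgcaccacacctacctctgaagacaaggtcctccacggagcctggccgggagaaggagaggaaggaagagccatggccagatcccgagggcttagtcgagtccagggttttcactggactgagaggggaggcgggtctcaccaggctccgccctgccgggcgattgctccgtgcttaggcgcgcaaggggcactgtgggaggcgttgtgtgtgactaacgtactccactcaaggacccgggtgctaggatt

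RefSeq promoters were matched for 29 of the 35 measured genes. An E2F octamer, searched as TTTCCCGC, TTTCGCGC, TTTGCCGC or TTTGGCGC on both strands, stood in 12 of the 29 (41.4%), against 618 of 27457 promoters of the same length in all (2.25%). The 27457 were not matched to the 29 for base composition or kind of gene. As many of these genes are known to be under E2F control, the excess follows from the list and is no result of these data. A CCAAT box (CCAAT, both strands), the site of the factor NF-Y, stood in 19 of the 29 (65.5%) against 37.7% of all promoters. TTTGAA, the core of the CHR element of many mitotic genes, stood in 1 of the 29 (3.45%), Mcm2, against 18.1% of all. Of 15 genes with a promoter that fell from day 1 to day 14 in both arms, 7 held an E2F octamer, as did 2 of 8 that fell in neither. The windows of Pold1, Mcm10, Uhrf1, Cdc45 and Fen1, counted here as without an E2F octamer, lay wholly inside the annotated gene. Sequence before the outermost start of these genes was not searched. These matches are descriptions of the letters in this window.

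By the test described below, 17 of the 35 genes were lower after 14 days than after 1 day in vehicle-treated livers, beside 1.56% of all tested genes. In metformin-treated livers 25 of the 35 were lower, beside 8.81% of all tested genes. Rrm2, the small subunit of ribonucleotide reductase, was 61.7-fold lower in control livers and 19.0-fold lower in metformin livers. The difference between these 2 falls did not pass the test (limma's interaction, adjusted p = 0.471). Tk1, thymidine kinase, was 4.79-fold and 5.59-fold lower. The helicase subunit Mcm6 was 2.43-fold and 2.44-fold lower. Within a day, none of the 35 genes passed the test between metformin and control. Of all tested genes 0.0152%, 0.254% and 3.29% passed it on days 1, 3 and 14.

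Differences were tested with limma on log2 intensity, with p-values adjusted over all 19686 tested genes. A gene is said to rise or fall where its adjusted p was under 0.05. The error given with each change is the model's standard error (n = 4 rats a group). From day 1 to day 14, 17 of the 35 genes fell in the control arm, where 1.56% of all tested genes fell, and none rose. In the metformin arm 25 of the 35 fell, where 8.81% of all tested genes fell, and none rose. The median log2 change of the 35 genes was -0.46 in controls and -0.65 in metformin rats, beside a median of 0.02 over all tested genes in each arm. All 17 genes that fell in controls also fell in metformin rats, which is 100% of the 17 and 68% of the 25. The adjustment is milder where more genes change, so the 17 and the 25 do not rest on the same unadjusted p. With an unadjusted limma p under 0.05 the counts were 26 and 29 of the 35, beside 1995 and 5430 of the 19686 tested genes. Livers of the 2 days did not overlap, with all day 14 values lower, in 25 of the 35 genes in controls (4.12% of all tested genes) and in 23 in metformin rats (9.51% of all tested genes).

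**Figure D1:**
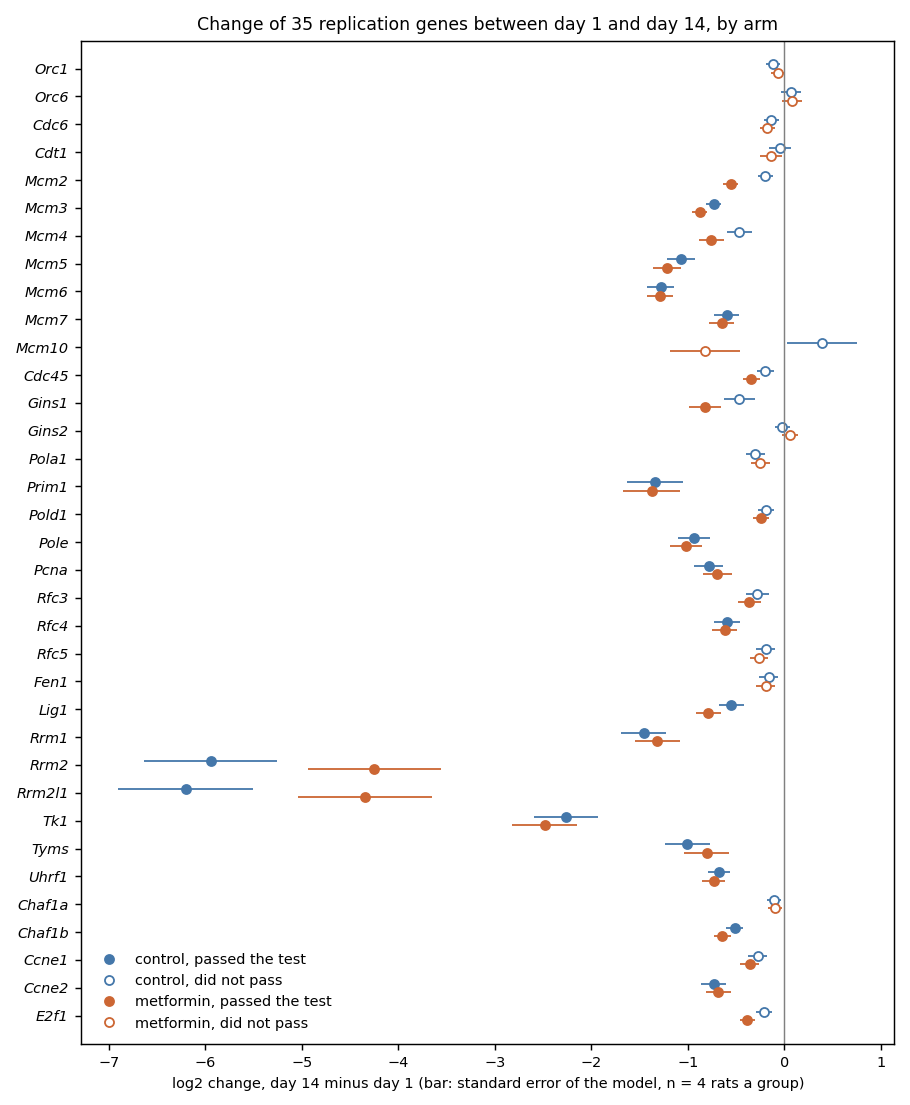
Log2 change from day 1 to day 14 of each of the 35 genes, in order of role, in the control arm (blue) and the metformin arm (orange). Bars show the model's standard error (n = 4 rats a group), and filled points passed the test. Rrm2 and Rrm2l1 lie far to the left of the others, and 33 of 35 genes lie below 0 in each arm. Of all 19686 tested genes 8720 lie below 0 in controls and 8974 in metformin rats.

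Nucleotide supply held the largest falls, and all 5 of its measured genes fell in both arms. Means of these 5 over all arrays ran from 8.88 to 11.34, and those of the 10 helicase genes from 4.66 to 7.59. Roles thus differed in brightness, so sizes of falls are not directly comparable between them. Rrm2 in control livers read 12.78, 11.96, 13.80 and 13.97 on day 1, 11.59, 11.04, 12.28 and 13.46 on day 3, and 7.66, 6.33, 7.44 and 7.30 on day 14 (log2 intensity). In metformin livers it read 14.23, 12.29, 10.74 and 12.15 on day 1, 11.12, 12.28, 14.25 and 12.25 on day 3, and 6.80, 8.19, 8.64 and 8.79 on day 14. Days 1 and 3 overlapped in both arms, while every day 14 liver lay below every earlier one. The change from day 1 to day 14 was -5.95 ± 0.69 in controls (adjusted p = 7.04e-05) and -4.25 ± 0.69 in metformin rats (adjusted p = 0.000326). Rrm2l1, annotated as a gene like Rrm2, changed by -6.21 ± 0.70 (adjusted p = 5.67e-05) and -4.35 ± 0.70 (adjusted p = 0.000288). In controls these were the largest and the second largest changes, up or down, of all 19686 tested genes. The deviations of Rrm2l1 and Rrm2 from their means differed by under 0.5 in 23 of 24 arrays, with a median gap of 0.08 and a largest gap of 0.94, and the order of the arrays was the same in 2 of 6 groups. Whether the probe sets of these similarly named genes share probes was not tested, so the values of either are uncertain. Without Rrm2l1, 16 of 34 genes fell in controls and 24 of 34 in metformin rats.

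Rrm2 and Rrm2l1 also varied most between rats of 1 group, with a pooled standard deviation within groups of 1.07 and 1.08 on the log2 scale. Orc1 varied least, at 0.0899. On day 1 the metformin rats spanned 10.74 to 14.23 in Rrm2, and on day 3 they spanned 11.12 to 14.25. On day 14 the control rats spanned 6.33 to 7.66 and the metformin rats 6.80 to 8.79 in Rrm2, and the same control rats spanned 5.84 to 8.15 in Rrm2l1. The difference between the 2 arms' falls was 1.70 ± 0.98 for Rrm2, with a 95% interval from -0.34 to 3.74 (limma's interaction, adjusted p = 0.471), so it was not resolved at this spread.

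Tk1, which phosphorylates thymidine, read 11.35, 10.36, 11.09 and 11.65 in controls on day 1, 10.28, 10.33, 10.73 and 10.90 on day 3, and 9.19, 8.74, 8.61 and 8.87 on day 14. In metformin rats it read 11.98, 11.26, 9.92 and 11.23 on day 1, 10.59, 10.20, 11.58 and 10.64 on day 3, and 8.49, 8.87, 8.67 and 8.41 on day 14. Day 14 stood below both earlier days without overlap in both arms. It fell by 2.26 ± 0.33 (adjusted p = 0.000356) in controls and by 2.48 ± 0.33 (adjusted p = 7.37e-05) in metformin rats. Rrm1, the large subunit of ribonucleotide reductase, fell by 1.46 ± 0.23 (adjusted p = 0.000805) and 1.31 ± 0.23 (adjusted p = 0.000671). Its day 14 livers lay between 9.06 and 9.42 in both arms, and every earlier liver at 9.72 or above. Tyms, which makes thymidylate from deoxyuridylate, fell by 1.00 ± 0.23 (adjusted p = 0.0247) and 0.80 ± 0.23 (adjusted p = 0.0244). Its control livers of day 1 spread from 8.94 to 9.74, and those of day 14 from 7.96 to 8.53.

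**Figure D2:**
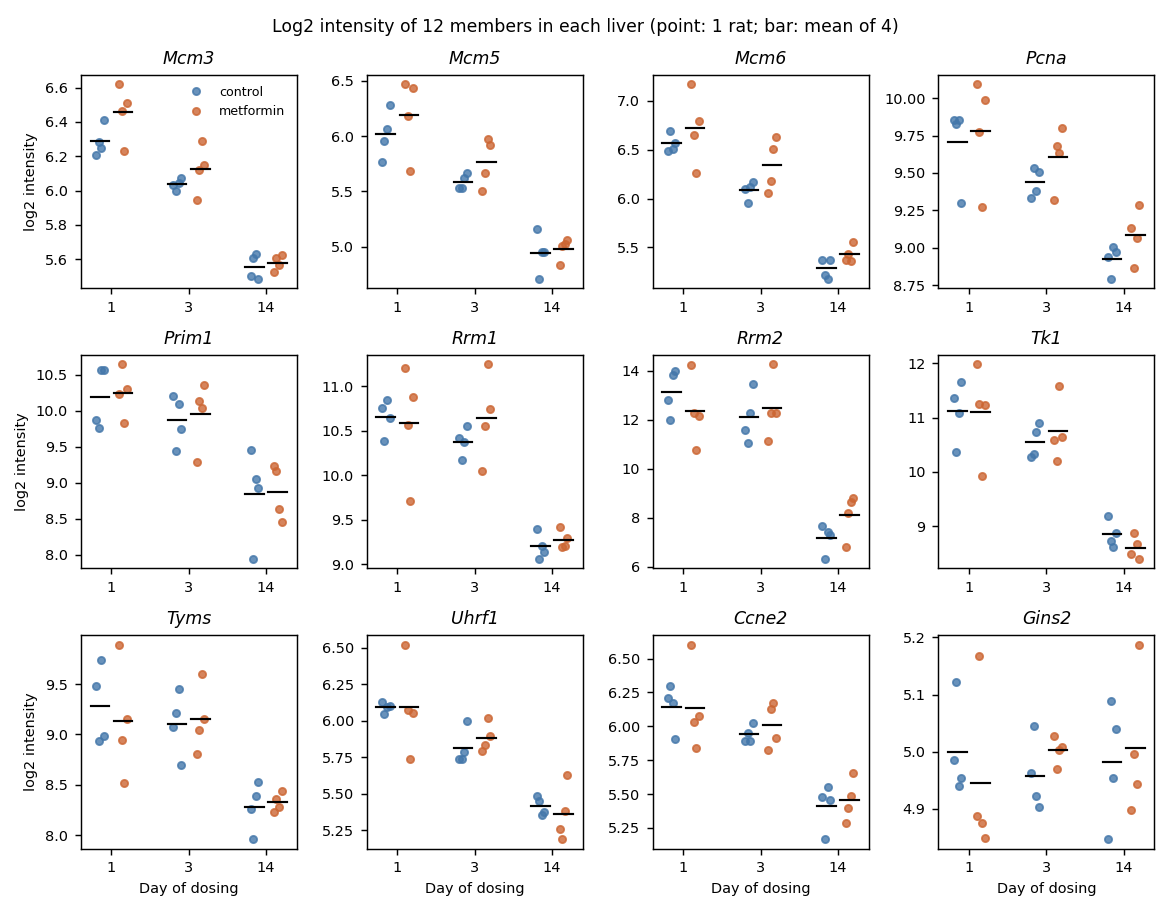
Log2 intensity (vertical axes, each panel with its own range) of 12 genes by day of dosing, with 1 point per rat and a bar at the mean of 4, control in blue and metformin in orange. In Rrm2, Tk1, Rrm1 and the MCM subunits shown, all 8 livers of day 14 lie below all livers of day 1, whereas Gins2 shows no such step.

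Among the 10 genes of the helicase and its activators, 4 fell in controls (Mcm3, Mcm5, Mcm6 and Mcm7) and 8 in metformin rats, where Mcm2, Mcm4, Cdc45 and Gins1 were added. Mcm6 in controls read 6.49, 6.69, 6.51 and 6.57 on day 1, 6.10, 5.96, 6.11 and 6.17 on day 3, and 5.37, 5.21, 5.18 and 5.37 on day 14. The 3 days of the control arm did not overlap in this gene, and each day was lower than the one before. Metformin rats read 7.17, 6.65, 6.26 and 6.79 on day 1, 6.06, 6.18, 6.51 and 6.63 on day 3, and 5.37, 5.44, 5.36 and 5.56 on day 14, with days 1 and 3 overlapping. Mcm6 changed by -1.28 ± 0.14 (adjusted p = 5.67e-05) in controls, the smallest p of the 35 genes there, and by -1.29 ± 0.14 (adjusted p = 9.5e-06) in metformin rats.

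Mcm3 in controls read 6.21, 6.28, 6.25 and 6.41 on day 1, 6.03, 5.9998, 6.04 and 6.08 on day 3, and 5.50, 5.61, 5.63 and 5.49 on day 14. In metformin rats it read 6.62, 6.46, 6.23 and 6.51, then 5.95, 6.12, 6.29 and 6.15, and then 5.52, 5.61, 5.57 and 5.62. In both arms day 14 stood apart from the other days, and in controls day 3 stood apart from day 1 as well. Mcm3 fell by 0.73 ± 0.08 (adjusted p = 5.67e-05) in controls and by 0.88 ± 0.08 (adjusted p = 2.57e-06) in metformin rats. Mcm5 fell by 1.07 ± 0.15 (adjusted p = 0.000178) and 1.21 ± 0.15 (adjusted p = 2.08e-05). Its control livers read 5.77, 5.96, 6.07 and 6.28 on day 1, 5.53, 5.53, 5.62 and 5.67 on day 3, and 5.17, 4.71, 4.95 and 4.95 on day 14, so that these days did not overlap either. Mcm7 fell by 0.59 ± 0.13 (adjusted p = 0.0125) in controls and 0.65 ± 0.13 (adjusted p = 0.00155) in metformin rats.

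Mcm4 changed by -0.46 ± 0.13 in controls (adjusted p = 0.0926) and fell by 0.76 ± 0.13 in metformin rats (adjusted p = 0.00063). Mcm2 changed by -0.19 ± 0.08 in controls (adjusted p = 0.359) and fell by 0.56 ± 0.08 in metformin rats (adjusted p = 0.000126). Control livers read 6.46, 6.32, 6.37 and 6.47 in Mcm2 on day 1 and 6.36, 6.19, 6.16 and 6.13 on day 14, which overlap. Metformin livers read 6.69, 6.55, 6.41 and 6.69 on day 1 and 6.11, 6.03, 6.11 and 5.86 on day 14, which do not. The GINS subunit Gins1 changed by -0.46 ± 0.16 in controls (adjusted p = 0.23) and fell by 0.82 ± 0.16 in metformin rats (adjusted p = 0.0017), while Gins2 of the same complex read 4.85 to 5.19 in all 24 livers (adjusted p = 0.974 and 0.658). Cdc45, which joins MCM and GINS in the helicase, changed by -0.20 ± 0.09 and fell by 0.34 ± 0.09 (adjusted p = 0.0117). Passing in 1 arm and not in the other does not show that the arms differ, and the test of that difference follows below the accounts by role.

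Mcm10, which binds the helicase and polymerase alpha at origins, had 1 array far from the rest. In controls it read 6.88, 6.99, 7.00 and 6.67 on day 1, 6.96, 6.53, 6.54 and 6.73 on day 3, and 8.96, 6.60, 6.86 and 6.71 on day 14. In metformin rats it read 7.39, 7.07, 6.71 and 7.57, then 6.85, 7.20, 7.52 and 8.18, and then 6.34, 6.02, 6.65 and 6.44. Control replicate 1 of day 14 stood far above the other control livers. Mcm10 changed by 0.40 in controls (adjusted p = 0.818) and by -0.82 in metformin rats (adjusted p = 0.142) from day 1 to day 14. Without that array the control change was -0.16 (adjusted p = 0.891), and the metformin change, still -0.82, passed the test (adjusted p = 0.0136).

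None of the 4 origin licensing genes passed in either arm. Their means over all arrays were low, from 4.17 to 5.34, so a fall could be missed. Orc1, the largest subunit of the origin recognition complex, changed by -0.12 in controls and -0.06 in metformin rats, between 4.01 and 4.34 in all livers. Orc6, another subunit of that complex, changed by 0.07 and 0.08. Cdc6, which loads the helicase with Cdt1, changed by -0.13 (adjusted p = 0.624) and -0.18 (adjusted p = 0.134). Cdt1 changed by -0.05 and -0.14.

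Among polymerases, clamp and clamp loader, 4 of 8 genes fell in controls and 6 of 8 in metformin rats. Prim1, the primase subunit that makes the RNA primer, fell by 1.34 ± 0.29 (adjusted p = 0.0136) in controls and 1.37 ± 0.29 (adjusted p = 0.00279) in metformin rats. Its control livers read 9.87, 9.76, 10.56 and 10.56 on day 1 and 9.46, 7.95, 9.06 and 8.92 on day 14, with no overlap but with a wide day 14 group. Pole, the catalytic subunit of the leading-strand polymerase, fell by 0.94 ± 0.17 (adjusted p = 0.00199) and 1.02 ± 0.17 (adjusted p = 0.000316). Pcna, the sliding clamp, read 9.85, 9.83, 9.86 and 9.30 in controls on day 1 and 8.94, 8.80, 9.01 and 8.97 on day 14. In metformin rats Pcna read 10.09, 9.77, 9.27 and 9.99 on day 1 and 9.13, 8.87, 9.07 and 9.29 on day 14. The control days did not overlap, whereas the lowest metformin liver of day 1 lay just below the highest of day 14. Pcna fell by 0.78 ± 0.15 (adjusted p = 0.00505) and 0.69 ± 0.15 (adjusted p = 0.00341). The clamp loader subunit Rfc4 fell by 0.59 ± 0.13 (adjusted p = 0.016) and 0.62 ± 0.13 (adjusted p = 0.00289).

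Other subunits of the same machines had smaller changes. Rfc3 changed by -0.28 in controls (adjusted p = 0.393) and fell by 0.36 in metformin rats (adjusted p = 0.0493), and Rfc5 did not pass in either arm (-0.19 and -0.26). Pold1, the catalytic subunit of the lagging-strand polymerase, changed by -0.19 in controls (adjusted p = 0.389) and fell by 0.24 in metformin rats (adjusted p = 0.0493). Pola1, the catalytic subunit of the priming polymerase, changed by -0.30 (adjusted p = 0.151) and -0.25 (adjusted p = 0.0888). Of the enzymes that finish Okazaki fragments, the ligase Lig1 fell by 0.55 ± 0.13 (adjusted p = 0.0263) and 0.79 ± 0.13 (adjusted p = 0.000333). The flap nuclease Fen1 changed by -0.16 and -0.19 without passing.

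Of 3 genes for the chromatin of new DNA, 2 fell in both arms. Uhrf1, which brings the maintenance methyltransferase to replicated DNA, read 6.12, 6.05, 6.09 and 6.10 in controls on day 1, 5.74, 5.74, 5.78 and 6.0006 on day 3, and 5.49, 5.45, 5.36 and 5.37 on day 14. In metformin rats it read 6.52, 6.07, 5.74 and 6.05 on day 1 and 5.25, 5.19, 5.38 and 5.63 on day 14. Day 14 lay below day 1 without overlap in both arms. Uhrf1 fell by 0.67 ± 0.12 (adjusted p = 0.0019) in controls and 0.73 ± 0.12 (adjusted p = 0.000301) in metformin rats. Chaf1b, a subunit of chromatin assembly factor 1, fell by 0.51 ± 0.09 (adjusted p = 0.00167) and 0.64 ± 0.09 (adjusted p = 8.72e-05). Chaf1a, its large subunit, changed by -0.10 in each arm (adjusted p = 0.74 and 0.413).

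Of the S-phase entry genes, Ccne2, a cyclin E that activates Cdk2, fell in both arms. It changed by -0.73 in controls, from 6.21, 6.30, 6.17 and 5.91 on day 1 to 5.48, 5.17, 5.55 and 5.46 on day 14, and by -0.68 in metformin rats. The other cyclin E gene, Ccne1, changed by -0.27 in controls and fell by 0.36 in metformin rats. The transcription factor E2f1 changed by -0.21 in controls (adjusted p = 0.34) and fell by 0.38 ± 0.08 in metformin rats (adjusted p = 0.0033). Its metformin livers read 5.31, 5.09, 5.30 and 5.10 on day 1 and 4.80, 4.78, 4.95 and 4.76 on day 14, with no overlap.

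Across fits that each changed 1 processing choice or left out 1 array, 12 of the 17 control calls and 20 of the 25 metformin calls were kept in every fit. The control calls lost in some fit were Mcm7, Prim1, Rfc4, Lig1 and Tyms, and the metformin calls lost were Cdc45, Pold1, Rfc3, Tyms and Ccne1.

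Few of the 35 genes passed between days 1 and 3, and more did between days 3 and 14. From day 1 to day 3 in controls, limma called 0 of the 35 genes and 0% of all tested genes. An unadjusted p under 0.05 was seen in 7 of the 35, beside 927 of 19686 tested genes. The median log2 change was -0.18, and 33 of the 35 genes were below 0, beside 9226 of 19686 tested genes. Genes can vary together between rats, so these are not 35 separate observations. In 7 genes (Mcm2, Mcm3, Mcm5, Mcm6, Pole, Rfc4 and Uhrf1) all day 3 controls lay below all day 1 controls, against 1.25% of all tested genes. Mcm6 had the smallest p of the 35, with a change of -0.48 ± 0.14 (adjusted p = 0.947). In metformin rats 1 gene fell from day 1 to day 3, Mcm3 at -0.33 ± 0.08 (adjusted p = 0.0347), beside 0.975% of all tested genes. That call was absent in fits without metformin replicate 1, 2 or 4 of day 1 or of day 3, and the count was 2 without metformin replicate 3 of day 1.

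From day 3 to day 14, 8 of the 35 genes fell in controls, where 0.757% of all tested genes fell. They were Mcm3, Mcm5, Mcm6, Rrm1, Rrm2, Rrm2l1, Tk1 and Chaf1b, and in 19 of the 35 genes day 14 lay wholly below day 3 (4.07% of all tested genes). Rrm2 changed by -4.91 ± 0.69 (adjusted p = 0.00159), Tk1 by -1.70 ± 0.33 (adjusted p = 0.0112), and Mcm6 by -0.80 ± 0.14 (adjusted p = 0.00548). In metformin rats 20 of the 35 fell, where 3.98% of all tested genes fell, and in 20 of the 35 the days did not overlap (5.75% of all tested genes). The 8 control calls were all among these 20, which is 100% of the 8 and 40% of the 20. Rrm2 changed by -4.37 ± 0.69 (adjusted p = 0.000903), Tk1 by -2.14 ± 0.33 (adjusted p = 0.000838), and Mcm6 by -0.91 ± 0.14 (adjusted p = 0.000756). These counts moved with single arrays: the control count was 5 without control replicate 2 of day 14 and 13 without metformin replicate 1 of day 1, and the metformin count was 10 without metformin replicate 3 of day 3 and 13 without replicate 4 of that day.

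Comparisons within a day asked whether metformin altered these genes against their own day's controls. On day 1 limma called 0 of the 35, beside 0.0152% of all tested genes, and 3 of the 35 had an unadjusted p under 0.05. On day 3 it called 0, beside 0.254% of all tested genes, again with 3 under 0.05. On day 14 it called 0, beside 3.29% of all tested genes, and once more 3 were under 0.05. Over all 19686 tested genes, 1619, 2687 and 3315 had an unadjusted p under 0.05 on days 1, 3 and 14. The share among the 35 was thus near or below that of all genes. The median log2 difference of the 35 genes was 0.07, 0.10 and 0.02 on the 3 days, beside 0.02, -0.03 and 0.01 over all tested genes. In each of these comparisons the 95% interval lay within -1 to 1 for 32 of the 35 genes. Within -0.5 to 0.5 it lay for 27, 25 and 27 genes on days 1, 3 and 14.

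**Figure D3:**
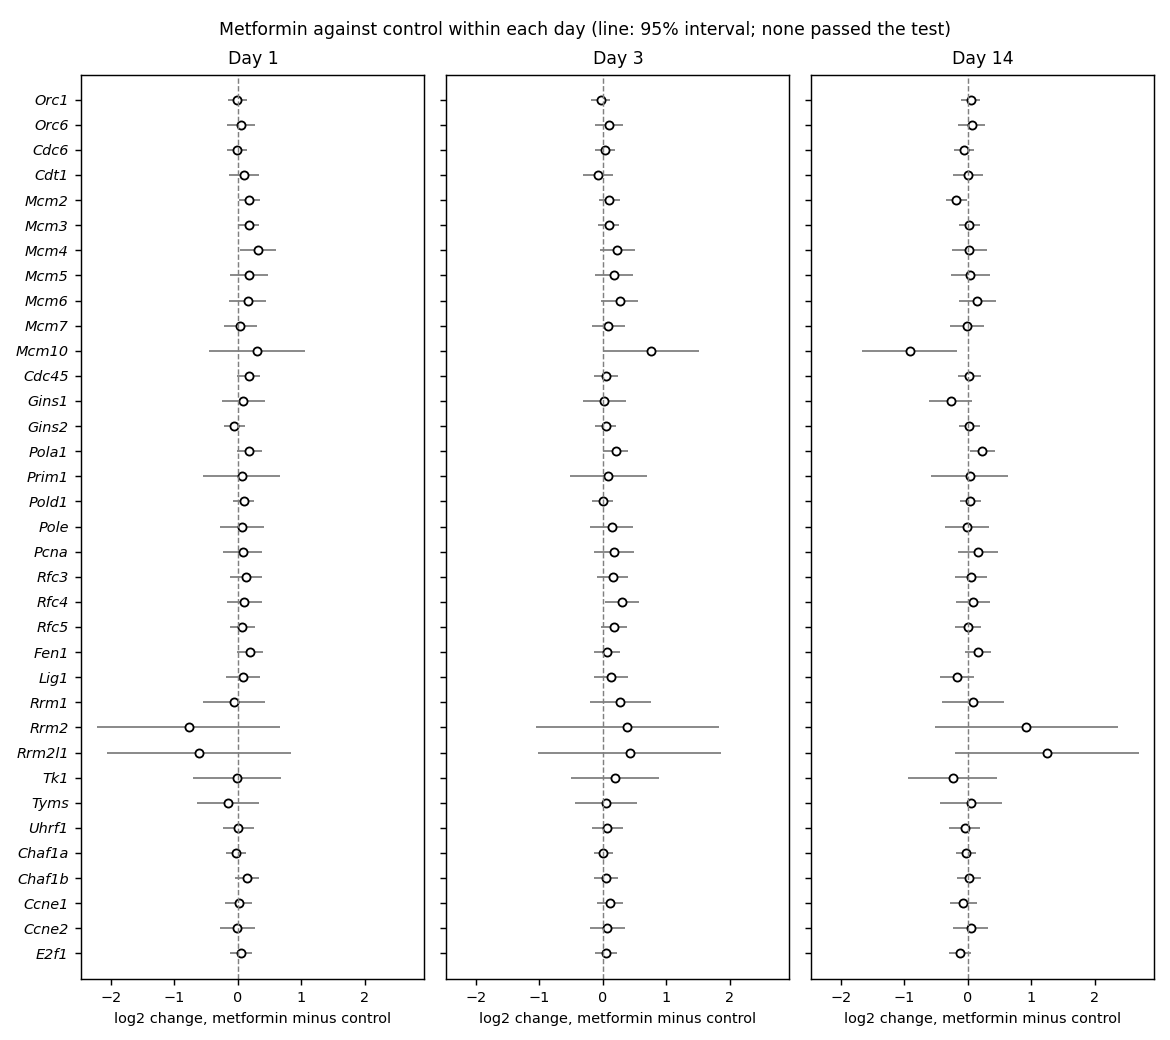
Log2 difference between metformin and control livers of each of the 35 genes on days 1, 3 and 14, with 95% intervals of the limma fit (n = 4 rats a group). No gene passed the test on any day, and the intervals of Rrm2, Rrm2l1 and Mcm10 are the widest.

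On day 1 the smallest p belonged to Mcm4, at 0.32 ± 0.13 (adjusted p = 0.532). Its metformin livers read 8.25, 7.86, 7.71 and 8.23 against 7.69, 7.62, 7.78 and 7.71 in controls, and the groups overlapped. Next came Mcm2 (0.18), Mcm3 (0.17), Cdc45 (0.17), Fen1 (0.18) and Pola1 (0.17), with adjusted p from 0.572 to 0.693. Metformin replicate 3 of day 1 was the lowest of its group in 33 of the 35 genes, and replicate 1 was the highest in 25. The median difference of day 1 was 0.20 without replicate 3 and -0.02 without replicate 1.

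On day 3 the smallest p belonged to the clamp loader Rfc4, at 0.30 ± 0.13 (adjusted p = 0.323). Metformin livers read 6.23, 6.30, 6.71 and 6.70 in Rfc4 against 6.08, 6.31, 6.32 and 6.05 in controls, and the groups overlapped. The others of the 6 smallest p were Pola1 (0.20), Mcm10 (0.75 ± 0.36, adjusted p = 0.365), Mcm6 (0.26), Rfc5 (0.18) and Mcm4 (0.23). Metformin replicate 1 of that day was the lowest of its group in 26 of the 35 genes, and replicate 3 the highest in 22. In all, 32 of the 35 differences of day 3 were above 0, beside 8408 of 19686 tested genes. The median of the 35 was 0.04 without replicate 3 and 0.16 without replicate 1.

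On day 14 the smallest p belonged to Mcm10, at -0.92 ± 0.36 (adjusted p = 0.183), and without control replicate 1 of day 14 this was -0.36 (adjusted p = 0.56). Pola1 followed at 0.23 ± 0.09 (adjusted p = 0.217). Its metformin livers read 6.69, 6.56, 6.65 and 6.51 against 6.36, 6.19, 6.48 and 6.47 in controls, without overlap. Mcm2 differed by -0.18 ± 0.08 (adjusted p = 0.247), also without overlap, and Rrm2l1 by 1.24 ± 0.70 (adjusted p = 0.394). Pola1 (higher) and Mcm2 (lower) were the 2 of the 35 genes whose day 14 groups did not overlap, beside 5.07% (higher) and 3.34% (lower) of all tested genes, so non-overlap was no more frequent than over all genes. Gins1 (-0.27, adjusted p = 0.435) and Fen1 (0.16, adjusted p = 0.471) completed the 6 smallest p.

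For some central genes the within-day differences are given although they were not among the smallest p. Rrm2 differed by -0.78 ± 0.69 on day 1, 0.38 ± 0.69 on day 3 and 0.92 ± 0.69 on day 14 (adjusted p = 0.869, 0.822 and 0.562). Its 95% interval on day 14 ran from -0.52 to 2.36. Mcm5 differed by 0.18, 0.18 and 0.04, and Pcna by 0.07, 0.17 and 0.16. Tyms differed by -0.16, 0.04 and 0.04, Uhrf1 by 0.00, 0.07 and -0.05, Ccne1 by 0.01, 0.11 and -0.07, and E2f1 by 0.05, 0.05 and -0.12.

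Whether the metformin difference changed between days was tested with the interaction. Between days 1 and 3 limma called 0 of the 35 genes, and 0% of all tested genes, with 0 of the 35 at an unadjusted p under 0.05. Between days 1 and 14 it called 0, beside 1.66% of all tested genes, and 2 were under 0.05. These were Mcm2 at -0.36 ± 0.11, with a 95% interval from -0.60 to -0.13 (adjusted p = 0.111), and Mcm10 at -1.22 ± 0.51 (adjusted p = 0.266). Mcm10 was at -0.66 (adjusted p = 0.408) without control replicate 1 of day 14. Between days 3 and 14 it called 0, beside 0.00508% of all tested genes, and 2 were under 0.05. Over all 19686 tested genes, 2102, 2774 and 1485 were under 0.05 in these interactions, in the order given. The 95% interval of the day 1 to day 14 interaction lay within -1 to 1 for 31 of the 35 genes, and it was wider for Rrm2, Rrm2l1, Tk1 and Mcm10. Within -0.5 to 0.5 it lay for 21 of the 35. These intervals bound how far the falls of the 2 arms could differ in each gene. The median changes of the 35 genes were -0.46 in controls and -0.65 in metformin rats. An interval that only lies within -1 to 1 can thus hold a difference as large as such a fall.

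Other genes of replication, nucleotide synthesis and the cell cycle were taken from 6 lists that hold none of the 35. These lists were chosen with earlier results of these data known. Their counts stand beside 1.56% of all tested genes that fell from day 1 to day 14 in controls, and 8.81% that fell and 5.13% that rose in metformin rats. All 20 mitosis genes fell from day 1 to day 14 in both arms, with a median log2 change of -2.52 in controls and -2.20 in metformin rats. Mki67, the proliferation antigen Ki-67, fell by 4.83 ± 0.56 (adjusted p = 7.04e-05) and 4.14 ± 0.56 (adjusted p = 7.5e-05), and the spindle checkpoint kinase Bub1 with changes of -2.70 and -2.54. Of 17 further genes of origin licensing and firing, 3 fell in controls (Dbf4, Wdhd1 and Ticrr), and in metformin rats 4 fell and Orc4 rose, the rise being near the share of all genes. Dbf4, the regulatory subunit of the kinase that fires origins, fell by 1.41 and 1.23. Of 26 further genes of polymerases, clamp and fork, 6 fell in controls, and in metformin rats 13 fell and 1 rose, again near the share of all genes that rose. Top2a, the topoisomerase of dividing cells, fell with log2 changes of -4.21 ± 0.47 (adjusted p = 5.67e-05) and -3.52 ± 0.47 (adjusted p = 6.76e-05), and Pclaf, a PCNA-binding factor, with -1.37 and -1.35.

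Of 13 further genes of deoxynucleotide supply, 3 fell in each arm, with Dtymk, thymidylate kinase, lower by a log2 change of -0.75 in controls and -0.45 in metformin rats, and Dck, deoxycytidine kinase, by -0.54 and -0.47. Of 17 genes of purine and pyrimidine synthesis, limma called 0 in controls. There 1 had an unadjusted p under 0.05, beside 1995 of all 19686 tested genes. In metformin rats 3 of the 17 fell and 2 rose, calls in both directions in a small list. Of 19 genes of E2F, RB and S-phase entry, 4 fell in controls and 7 in metformin rats. Ccna2, the cyclin of S phase and G2, changed by -3.96 and -3.38, and Rbl1, a pocket protein that represses E2F targets, by -1.28 and -1.51. Within day 14, limma called 6 of the 112 tested genes of these lists (5.36%) between metformin and control, near the 3.29% of all tested genes. Metformin livers were higher than controls in Orc4 (0.40 ± 0.09, adjusted p = 0.0186), Top1 (0.47), Ctps1, CTP synthase (0.75 ± 0.16, adjusted p = 0.0144), Cad of pyrimidine synthesis (0.39) and Tfdp1, the E2F partner (0.30). Rbl2, another pocket protein, was lower (-0.53 ± 0.11, adjusted p = 0.00951). The metformin difference changed between days 1 and 14 in 3 of the 112 genes (2.68%, beside 1.66% of all tested genes), which were Cdk2, the kinase partner of cyclin E (-0.85 ± 0.16, adjusted p = 0.0125), Rbl2 (-0.67 ± 0.15, adjusted p = 0.0269) and Orc4 (0.63 ± 0.13, adjusted p = 0.016).

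**Figure D4:**
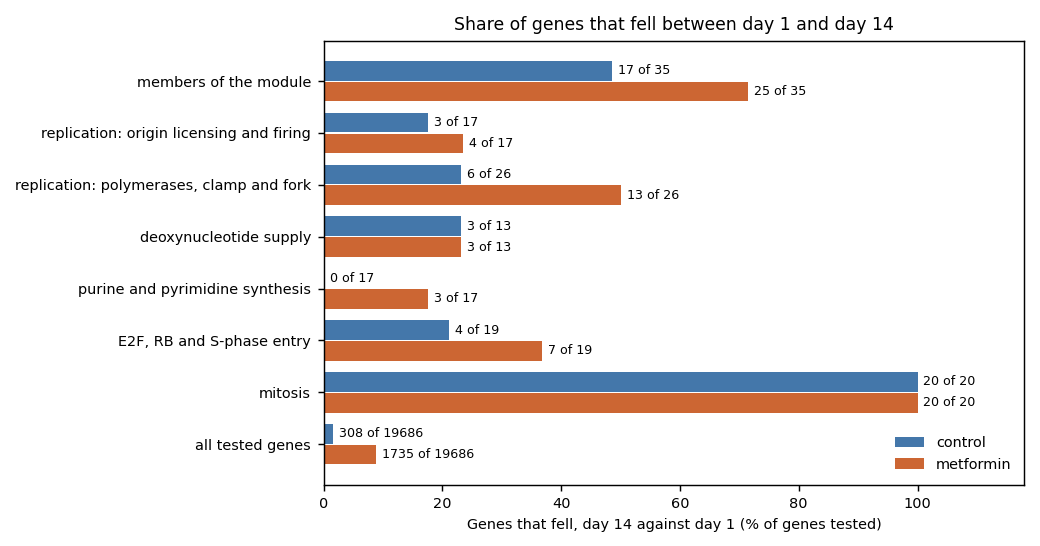
Share of tested genes that fell from day 1 to day 14 (limma, adjusted p under 0.05) among the 35 genes, among further lists and among all tested genes, in the control arm (blue) and the metformin arm (orange). The bars of mitosis reach 20 of 20 in both arms, and those of the 35 genes reach 17 and 25. The 35 genes and the lists were chosen with earlier results of these data known.

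Markers of liver cell types were read in the same fits. From day 1 to day 14 in controls, 1 of 9 tested hepatocyte markers fell (Apoa1, -0.61), and limma called 0 of 12 Kupffer cell, 10 lymphocyte, 10 endothelial, 12 stellate cell, 7 cholangiocyte, 7 neutrophil and 9 erythroid markers, with 0 to 2 per list at an unadjusted p under 0.05. In metformin rats, where 8.81% of all tested genes fell, 6 of 12 stellate cell and fibroblast markers fell (median -0.58), as did 2 of 12 Kupffer cell and macrophage markers (Cd68 and Cd163, median of the list -0.45). Of 10 endothelial markers 1 fell (Pecam1), a share near that of all genes, while all 10 were below 0 and their median was -0.41. In 7 of them the unadjusted p was under 0.05, beside 5430 of 19686 tested genes. Apoa1 fell and the erythroid marker Ahsp rose. Passing in 1 arm does not show that the arms differ in these markers either. Between metformin and control on day 14, limma called 0 of 12 stellate cell, 0 of 12 Kupffer cell and 0 of 10 endothelial markers. In the same order, 11, 12 and 9 of them were below 0, beside 9318 of 19686 tested genes, with medians of -0.30, -0.19 and -0.19. The unadjusted p was under 0.05 in 2, 0 and 3, beside 3315 of all tested genes. The day 1 to day 14 interaction called 0 in each of these lists as well. There 12, 11 and 9 markers were below 0, beside 9795 of 19686 tested genes, with medians of -0.46, -0.39 and -0.29. The unadjusted p was under 0.05 in 5, 1 and 2, beside 2774 of all tested genes. An absence of calls does not show that the arms were alike in these markers. The only marker that passed either test was the erythroid marker Tfrc, at 1.58 (adjusted p = 0.00876) and 1.95 (adjusted p = 0.0283), beside 3.29% and 1.66% of all tested genes. Summed stellate cell markers lay between 13.78 and 14.00 on day 1 and between 12.81 and 13.31 on day 14 in metformin rats, without overlap, and between 13.34 and 13.93 and between 12.71 and 13.76 in controls, with overlap. Summed Kupffer cell markers overlapped between these days in both arms (13.83 to 14.98 and 13.82 to 14.30 in metformin rats, 14.19 to 14.75 and 13.26 to 14.66 in controls). The part of these cell types in the falls of the replication genes was not tested.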

How the data were processed

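Per the submitters' processing notes the authors processed the Affymetrix arrays with RMA, and the values deposited are linear intensities of probe sets, 1 for each array. The version, array batches and hour of necropsy are not given in sources used here. Log2 of each intensity was taken. A single gene symbol was annotated to 23446 of 68842 probe sets, several to 505 and none to 44891; 22077 were matched by Entrez identifier, which replaced 1 symbol. Genes above an intensity of 19.475, the 30th percentile, in at least 4 arrays were tested (19686). A model with 1 mean per group over all 24 arrays was fitted with limma 3.58.1 in R 4.3.3 (lmFit and eBayes), with p-values adjusted by the Benjamini-Hochberg method over all tested genes. The model was also run on simulated data with noise drawn separately for each gene. That run does not bear on counts over genes that vary together between rats. The number of arrays limits the precision.

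The 35 genes, the other lists, and the tests were chosen with earlier results of these data known. Named beside them are up to 4 called genes per list and comparison with the smallest p, and for each day the 6 genes of the 35 with the smallest p, besides Mcm5, Pcna, Rrm2, Tyms, Ccne1, E2f1 and Uhrf1 in any case. The alternatives were 11 other settings and leaving out each of 24 arrays. Replicates are labelled as biological, and cages were not modelled.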

Additional observations from a re-analysis of the deposited data

Results flagged for a closer look

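In 13 of 210 groups of 4 livers (6.19%), 1 liver stood apart from the others by more of the group's range than Dixon's critical value for 4 samples allows, where chance gives about 1 in 20. Among controls of day 1, E2f1 was low in replicate 1 (5.06), and Mcm7 (7.10) and Pcna (9.30) were low in replicate 4. Among controls of day 3, Cdt1 was low in replicate 2 (4.71), Rfc3 was low (6.0017) and Uhrf1 high (6.0006) in replicate 4. In controls of day 14, Mcm10 was high (8.96) and Cdc6 low (4.63) in replicate 1, and Lig1 was low in replicate 2 (6.96). Of the metformin livers of day 1, replicate 3 was low in Fen1 (5.23) and Rfc3 (5.98), and replicate 2 was high in Gins2 (5.17). On day 3, metformin replicate 3 was high in Chaf1b (5.43). All values are log2 intensities.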

How the results depend on the processing

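No direction of a called change turned in any of 11 other settings or 24 fits without 1 array, and the median of all tested genes moved by at most 0.08 on the log2 scale. Counts of called genes of the 35 stayed at 0 in all of these fits for the 3 comparisons within a day, the 3 interactions and control day 3 against day 1, with a lowest adjusted p of 0.077 (metformin against control on day 3). From day 1 to day 14 the count was 17 in controls (13 to 17 in other settings, 12 to 18 without 1 array) and 25 in metformin rats (20 to 26 and 21 to 26). From day 3 to day 14 it was 8 in controls (6 to 10 and 5 to 13) and 20 in metformin rats (13 to 20 and 10 to 22), where 13 came from a fit of only the groups compared. From day 1 to day 3 in metformin rats the count of 1 became 0 with every probe set tested, with the replicate block and with only the groups compared, and 0 to 2 without 1 array; the cause was not tested. Medians of the 35 genes ranged over fits without 1 array from -0.02 to 0.20 for metformin against control on day 1, 0.04 to 0.16 on day 3 and -0.00 to 0.04 on day 14. For the interactions they ranged from -0.07 to 0.09 (day 3 against day 1), -0.15 to -0.02 (day 14 against day 1) and -0.13 to -0.02 (day 14 against day 3). In controls they ranged from -0.18 to -0.16 (day 3 against day 1), -0.51 to -0.46 (day 14 against day 1) and -0.36 to -0.31 (day 14 against day 3), and in metformin rats from -0.23 to -0.07, -0.78 to -0.55 and -0.58 to -0.45.

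With the replicate number as a block the counts were 16 and 7 in controls (day 14 against days 1 and 3), and 23 and 19 in metformin rats. The labels do not say that a number marks a shared litter, cage or day. Deviations of same-numbered arrays from their group means correlated at -0.16 to 0.19 over genes, and those of other pairs at -0.17 to 0.26, so the numbers gave no pairing.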
